A study of Drosophila melanogaster with 14 samples.

Results

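The genes described here make and guard the entry of proteins into the endoplasmic reticulum (ER) of the fruit fly Drosophila melanogaster. They were given as a list of 33 names and were found by FlyBase identifier in the deposited expression tables, which hold 14767 genes for the APP groups, 14791 for the Shal495 groups and 13312 for the TrpA1 groups. Each table held 32 of the 33, and the signal peptidase subunit Spase12 was not analysed here. They fall into 8 genes of targeting, 11 of the translocon with its signal peptidase and glycosylation enzymes, 6 of folding, and 7 of stress sensing and degradation. Every one of the 32 passed the expression filter in every table, so no member was lost to low values. Earlier results from these data were known when the genes were chosen, but the choice did not use their measured values.

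The signal recognition particle (SRP) binds the signal peptide of a protein that is still being made and brings the ribosome to the SRP receptor on the ER membrane. The chain then passes through the Sec61 channel, signal peptidase removes the signal peptide, and the oligosaccharyltransferase attaches sugars to it. Chaperones such as Hsc70-3 (the fly BiP) and the lectins calnexin and calreticulin fold it. When unfolded proteins build up, the sensors Ire1, PEK and Atf6 start the unfolded-protein response: Ire1 splices the mRNA of Xbp1, PEK phosphorylates the translation factor eIF2alpha and so raises the translation of crc (the fly ATF4), and Atf6 is released from the membrane by cleavage. Splicing, phosphorylation and cleavage are not seen in a gene-level transcript value, which is all that was measured here.

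RNA was sequenced in 14 libraries, 2 in each of 7 groups, from adult males aged 5 to 7 days with about 50 flies pooled per library. The APP table holds flies with the driver alone (genotype Elav-Gal4;+;+, here the Gal4 control), flies with the transgene alone (w;UAS-APP;+, here the UAS control) and flies with both (Elav-Gal4;UAS-APP;+, here APP flies). The Shal495 table holds w1118 controls and flies labelled w;+;Shal495, a mutant of the voltage-gated potassium channel gene Shal, where the genotype label of replicate 2 reads Shal496 and its title Shal495. The TrpA1 table holds a UAS-TrpA1 control (w;+;UAS-TrpA1) and flies with driver and transgene (Elav-Gal4;+;UAS-TrpA1, here TrpA1 flies), and no flies with the driver alone. TrpA1 is a heat-activated cation channel, and per the labels all flies were kept at room temperature. Elav-Gal4 uses the elav promoter to express the yeast activator Gal4 in neurons, and is used to switch on a UAS transgene mainly there. The labels do not say which species or form of APP the transgene carries. They give brain as the tissue, with fixation in paraformaldehyde, while the series description names heads. Nothing in the labels says that replicates came from separate cultures, so a p-value here reflects the spread among these libraries alone, which may be technical.

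Library depth was 17162942 to 19911318 fragments. The members were covered by 139 fragments (Srp14) to 24957 (Hsc70-3) per library in the APP table, 93 to 7826 in the Shal495 table and 269 to 10777 in the TrpA1 table, with Srp14 the most thinly covered in each. Libraries differed widely in transcripts of other tissues. Summed FPKM (fragments per kilobase of transcript, scaled to the sequencing depth of the library) of 31 digestive enzyme genes was 80467 to 81549 in the Gal4 control, or about 12% of all FPKM. It was 35361 to 38217 in the UAS control and 1330 to 1341 in APP flies, with zetaTry alone at 0 in all 6 libraries. Summed FPKM of 16 neuronal genes was 97.9 to 98.9 in the Gal4 control, 294 to 390.3 in the UAS control and 1418 to 1430.3 in APP flies, with no marker at 0. The neuronal gene elav was at 2.22 and 2.41 FPKM in the Gal4 control and at 20.3 and 20.6 in APP flies, so this defining marker of the labelled tissue was low in the Gal4 control. Yolk protein transcripts, which are typical of females, also set whole groups apart from their label as males. Yp2 was at 145 to 150.4 FPKM in the Gal4 control, 313 to 351 in Shal495 and 393 to 404 in the UAS-TrpA1 control, against at most 1.05 in the other groups. Both libraries of each such group shared this, so no comparison could be made within the group without them. The comparison of APP flies with the UAS control is free of such libraries. The noncoding RNA roX1, which is typical of males, was present in these groups too. It was at 69.7 to 70.8 FPKM in the Gal4 control, 279 to 304 in Shal495 and 99.5 to 99.9 in the UAS-TrpA1 control. In the other groups it was at 156 to 320 FPKM, so these transcripts do not settle the sex of the flies. In bulk RNA, fewer cells of a type and less RNA per cell cannot be told apart.

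FPKM is a level per transcript length, so genes can be set beside each other within a library. Calr, the calcium-binding lectin calreticulin, had the highest level of all 32 members in each of the 7 groups, at means from 199.6 FPKM in Shal495 to 492 in the UAS control. The lowest was the stress sensor PEK in the Gal4, UAS, TrpA1 and UAS-TrpA1 groups (7.05 to 12.6 FPKM), the signal peptidase subunit Spase22-23 in APP flies and Shal495 (7.84 and 9.45), and Sec63 in w1118 (10.4). Between 5 and 20 neighbouring pairs in this order of levels had overlapping libraries, depending on the group, so the middle of the order was not resolved. Together the 32 genes made up 0.409% and 0.414% of all FPKM in the Gal4 control, 0.517% and 0.525% in the UAS control, and 0.365% and 0.36% in APP flies. In w1118 the share was 0.362% and 0.365%, and in Shal495 0.32% and 0.312%. It was 0.265% and 0.271% in TrpA1 flies and 0.291% in both UAS-TrpA1 libraries. Tables were deposited separately, so levels across tables are given only side by side.

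The members lie on chromosome arms 2L (5 genes), 2R (5), 3L (6), 3R (10) and X (6) of the BDGP6 genome. The SRP subunit genes Srp14 (FBgn0038808, chr3R:20580115-20580764) and Srp72 (FBgn0038810, chr3R:20588711-20591040) are 7946 bp apart. Another annotated gene overlaps 15 of the 32, on the opposite strand for 12, among them ERp60 (cuff), Gp93 (CG4951), Ire1 (MICU3) and Srp72 (Pus1). No strand marking is stated for the library kit, so fragments in these overlaps could belong to either gene and the values of those 15 are uncertain to that extent. For crc the overlapping gene, CG46314, is on the same strand. One member is not what its name says: the deposited annotation describes Srp54 (FBgn0024285, chr2L:9912911-9915044) as an arginine/serine-rich splicing factor, and gives Srp54k (FBgn0010747) as the SRP subunit of 54 kDa. Srp54 is kept as listed, and Srp54k is given beside it.

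Differences were tested on log2(FPKM + 1) with limma across all tested genes of a table, with Benjamini-Hochberg adjustment and a two-sided threshold of 0.05; adjusted p below always means this. An exact permutation test of 2 libraries against 2 cannot give a p below 0.333 for a single gene, so none is reported. The median tested gene was itself displaced by 0.43 (log2) in APP flies against the Gal4 control, by 0.17 against the UAS control, by -0.27 between these controls and by -0.16 in TrpA1 flies. Each SE and adjusted p belongs to the log2 difference on FPKM as deposited, which is printed with it. In the comparisons other than Shal495, a second value, called relative, is that difference less the median of all tested genes, and it has no test of its own. Calls are given that held under each of 3 scalings: FPKM as deposited, median centring and quantile normalization.

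In APP flies most genes of the route into the ER were low against both controls under the 3 scalings used. All 11 translocon genes and 7 of 8 targeting genes fell against the Gal4 control and against the UAS control under all 3 scalings, while the lectin chaperone Cnx99A and the sensors PEK and Ire1 rose against both. Against the Gal4 control 24 of the 32 members fell under all 3 scalings, where 25.7% of the 9866 tested genes did, and 3 rose, where 35.4% did. Against the UAS control 26 fell, with 28.9% of all tested genes, and 3 rose, with 35.2%. On FPKM as deposited the calls against the Gal4 control were 26 lower and 6 higher, against 27.5% and 56.5% of all genes. Against the UAS control they were 26 lower and 4 higher, against 30.7% and 46.1%. Median centring gave 26 lower and 3 higher against the Gal4 control (45.8% and 36.0% of all genes) and 27 lower and 3 higher against the UAS control (42.0% and 35.2%). Quantile normalization gave 24 lower and 5 higher (40.1% and 41.2%) and 26 lower and 3 higher (37.0% and 40.2%). Libraries of APP flies and the Gal4 control did not overlap for any of the 32, with 26 lower and 6 higher, where 31.8% and 61.5% of all genes were so separated. Against the UAS control 26 lay wholly below and 5 wholly above, beside 36.6% and 51.9% of all genes, and crc overlapped. The median member lay -1.18 (log2) from the median gene against the Gal4 control and -1.02 against the UAS control. By step, the median relative difference against the Gal4 control was -1.13 in targeting, -1.49 in the translocon, -1.61 in folding and -0.02 among the stress genes, and against the UAS control -1.01, -1.23, -1.56 and -0.22 in that order. As a share of all FPKM, the 8 targeting genes held 0.0348% and 0.0346% in the Gal4 control. They held 0.0427% and 0.0454% in the UAS control, and 0.0343% and 0.0346% in APP flies. On that scale the step was nearly level with the Gal4 control, so its fall there depended on the scaling. The translocon held 0.125% and 0.127%, 0.128% and 0.144%, and 0.0862% and 0.0852% in that order. Folding held 0.185% and 0.188%, 0.261% and 0.255%, and 0.162% and 0.159%. The comparisons share the APP libraries, so they are not independent of each other. Replicates of the UAS control differed far more than sampling noise, with a chi-square per member of 20.5 where noise alone gives 1, the largest of the 7 groups, against 1.24 in the Gal4 control and 1.08 in APP flies. Beside these calls stand the digestive enzyme and neuronal marker sums above. Other marker sums follow for the Gal4 control, the UAS control and APP flies in that order. For 14 photoreceptor genes they were 2983 to 3038, 21946 to 26508 and 30884 to 30899. For 14 fat body genes they were 2495 to 2531, 2239 to 2687 and 1449 to 1459. For 8 glial genes they were 906 to 913, 975 to 993 and 1499 to 1509, and for 12 muscle genes 1656 to 1660, 1122 to 1237 and 1695 to 1699. The part of these sums in the result was not tested.

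**Figure D1:**
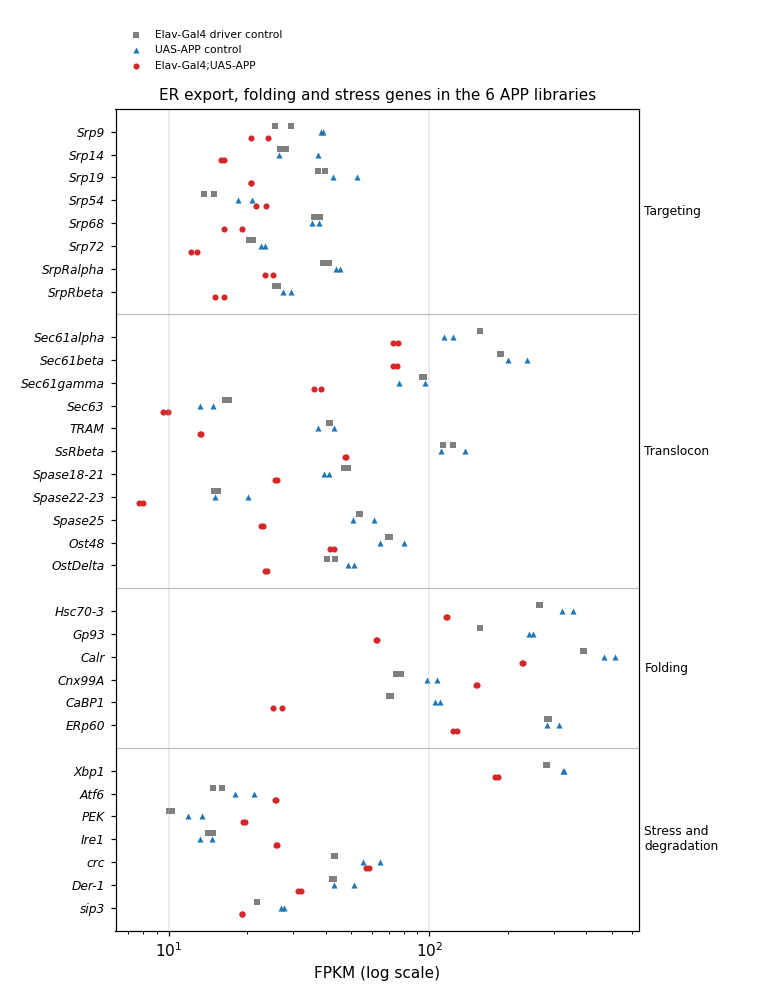
FPKM (log scale) of the 32 members in each of the 6 libraries of the APP table, by step; squares are the Gal4 control, triangles the UAS control and circles APP flies. Circles lie left of all controls for the translocon genes, and right of them for Cnx99A, Atf6, PEK and Ire1.

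Among the targeting genes, SRP subunit Srp68 had the lowest log2 difference against the Gal4 control. It was at 36.2 and 38.0 FPKM in the Gal4 control, 35.3 and 37.6 in the UAS control, and 19.1 and 16.4 in APP flies. The APP libraries did not overlap those of either control, at a log2 difference of -1.03 (SE 0.085, adjusted p = 1.7e-05) against the Gal4 control, or -1.46 relative to the median gene. Srp19, an SRP subunit that binds the RNA of the particle, was at 39.8 and 37.4 FPKM in the Gal4 control, 42.8 and 52.7 in the UAS control, and 20.6 and 20.7 in APP flies. It had the lowest difference of the step against the UAS control, -1.16 (SE 0.099, adjusted p = 3.16e-05), or -1.33 relative. Srp9, which with Srp14 forms the part of the particle that slows translation, was at 29.5 and 25.5 FPKM in the Gal4 control, 38.5 and 38.9 in the UAS control, and 20.7 and 24.1 in APP flies. Its call against the Gal4 control was lost when replicate 1 of either group was left out (largest adjusted p = 0.19). The receptor subunits SrpRalpha and SrpRbeta fell, with relative differences of -1.14 and -1.12 against the Gal4 control and of -1.03 and -0.99 against the UAS control. Srp54 went the other way, with 14.9 and 13.7 FPKM in the Gal4 control, 18.5 and 20.9 in the UAS control, and 21.7 and 23.5 in APP flies. It was called higher against the Gal4 control on FPKM as deposited (0.63, adjusted p = 0.000311), but not after median centring (0.07, adjusted p = 0.547) or quantile normalization (0.20, adjusted p = 0.0755), and was not called against the UAS control (0.19, adjusted p = 0.081). Srp54k, the subunit of the particle, fell under all 3 scalings against both controls. It was at 44.4 and 49.4 FPKM in the Gal4 control, 50.2 and 50.6 in the UAS control, and 25.8 and 27.6 in APP flies, a relative log2 difference of -1.22 and -1.06 against the controls in that order.

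The Sec61 channel is made of 3 subunits, of which Sec61alpha forms the pore. Sec61alpha (FBgn0086357, chr2L:6477182-6480575) was at 156 FPKM in both Gal4 control libraries, at 114 and 123 in the UAS control, and at 75.8 and 72.8 in APP flies. The groups were fully separated from each other, and APP flies were lower, with a difference of -1.06 (SE 0.062, adjusted p = 2.64e-06) against the Gal4 control and -0.66 (SE 0.062, adjusted p = 5.16e-05) against the UAS control. Relative to the median gene these are -1.49 and -0.83. Sec61beta, a small subunit of the channel, was at 186 and 189 FPKM in the Gal4 control, 200.2 and 236 in the UAS control, and 75.3 and 72.5 in APP flies. Its difference against the UAS control, -1.55 (SE 0.084, adjusted p = 4.26e-06), was the lowest of the translocon step. TRAM, a membrane protein beside the channel, had the lowest difference of all 32 members against the Gal4 control. It was at 41.2 and 41.5 FPKM there, at 37.4 and 42.9 in the UAS control, and at 13.3 and 13.1 in APP flies. That is 0.319 and 0.329 times the means of the controls, with log2 differences of -1.58 (SE 0.077, adjusted p = 1.11e-06) and -1.53 (SE 0.077, adjusted p = 3.32e-06), or -2.0 and -1.70 relative. Sec63, which recruits Hsc70-3 to the channel, was at 17.0 and 16.5 FPKM in the Gal4 control, 13.2 and 14.8 in the UAS control, and 9.502 and 9.98 in APP flies. Its difference against the UAS control was the smallest fall of the step, -0.48 (adjusted p = 0.00103), or -0.65 relative.

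Enzymes that act on the entering chain fell as well. Spase25, a subunit of signal peptidase, was at 54.2 and 53.7 FPKM in the Gal4 control, 50.9 and 61.5 in the UAS control, and 22.6 and 23.0 in APP flies. Its differences were -1.21 (SE 0.090) and -1.26 (SE 0.090) against the controls in that order, or -1.64 and -1.43 relative, with no overlap. Ost48, a subunit of the oligosaccharyltransferase, had the smallest fall of the step against the Gal4 control, -0.71 (SE 0.096, adjusted p = 0.000279), or -1.14 relative. It was at 70.5 and 69.1 FPKM there, at 64.8 and 79.9 in the UAS control, and at 41.7 and 43.0 in APP flies. OstDelta, another subunit of that enzyme, was at 43.3 and 40.5 FPKM in the Gal4 control, 48.7 and 51.5 in the UAS control, and 23.8 and 23.3 in APP flies. The remaining translocon members (the channel subunit Sec61gamma, the translocon-associated SsRbeta, and the signal peptidase subunits Spase18-21 and Spase22-23) had relative differences between -1.75 and -1.30 against the Gal4 control and between -1.52 and -0.80 against the UAS control.

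Folding enzymes and chaperones fell, with Cnx99A as the exception. Hsc70-3 (FBgn0001218, chrX:11801696-11807117), the main ER chaperone, was at 262 and 266 FPKM in the Gal4 control, 355 and 321 in the UAS control, and 116 and 115.4 in APP flies. APP flies were at 0.439 and 0.342 times the control means, with no overlap and log2 differences of -1.18 (SE 0.066, adjusted p = 2.04e-06) and -1.54 (SE 0.066, adjusted p = 1.8e-06), or -1.61 and -1.71 relative. Gp93, the ER form of Hsp90, was at 156 FPKM in both Gal4 control libraries, at 250.2 and 241 in the UAS control, and at 62.3 and 62.7 in APP flies. CaBP1, a protein disulfide isomerase, had the lowest differences of the step, -1.40 (SE 0.063, adjusted p = 7.24e-07) and -2.0 (SE 0.063, adjusted p = 4.57e-07), or -1.83 and -2.17 relative. It was at 71.5 and 70.0 FPKM in the Gal4 control, 105 and 110.1 in the UAS control, and 27.1 and 25.1 in APP flies. ERp60, also a disulfide isomerase, was at 282 and 288 FPKM in the Gal4 control, 282 and 313 in the UAS control, and 128 and 123 in APP flies.

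The lectin pair moved apart. Calr was at 387 and 392 FPKM in the Gal4 control, 468 and 516 in the UAS control, and 228 and 226 in APP flies. It fell against the UAS control under all 3 scalings (-1.11 as deposited, SE 0.067, adjusted p = 6.71e-06). Against the Gal4 control it fell on FPKM as deposited (-0.78, adjusted p = 2.14e-05) but not after quantile normalization (-0.07, adjusted p = 0.151). The relative differences were -1.28 and -1.21 in that order. Cnx99A (FBgn0015622, chr3R:29315254-29319644), the membrane-bound calnexin, was at 74.4 and 78.0 FPKM in the Gal4 control, 107 and 97.99 in the UAS control, and 152 and 151 in APP flies. All APP libraries were above all controls, at 1.99 and 1.47 times the control means, with log2 differences of 0.98 (SE 0.065, adjusted p = 5e-06) and 0.56 (SE 0.065, adjusted p = 0.00016). The relative differences were smaller, at 0.55 and 0.39, and after median centring the adjusted p was 0.000498 and 0.00305.

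The stress sensors did not go with the genes of the route. PEK, the kinase that slows translation, was at 10.0 and 10.3 FPKM in the Gal4 control, 13.4 and 11.8 in the UAS control, and 19.5 and 19.3 in APP flies. It was higher by 0.87 (SE 0.079, adjusted p = 2.86e-05) and 0.59 (SE 0.079, adjusted p = 0.000352), or 0.44 and 0.42 relative, and after median centring by 0.31 (adjusted p = 0.00484) and 0.33 (adjusted p = 0.00391). Ire1, the kinase and nuclease that splices Xbp1 mRNA, was at 14.8 and 14.1 FPKM in the Gal4 control, 14.6 and 13.1 in the UAS control, and 25.7 and 26.1 in APP flies. Both controls overlapped each other and lay well below APP flies, at differences of 0.80 (SE 0.076, adjusted p = 3.74e-05) and 0.85 (SE 0.076, adjusted p = 3.96e-05), or 0.37 and 0.68 relative. After median centring these were 0.24 (adjusted p = 0.0166) and 0.60 (adjusted p = 0.000209). The membrane-bound transcription factor Atf6 was at 15.97 and 14.8 FPKM in the Gal4 control, 21.2 and 18.0 in the UAS control, and 25.5 and 25.7 in APP flies. It was called higher on FPKM as deposited against both (0.70, adjusted p = 0.000199, and 0.37, adjusted p = 0.00689), or 0.27 and 0.20 relative. After median centring it was called against neither (adjusted p = 0.155 and 0.23), and after quantile normalization only against the Gal4 control (adjusted p = 0.0124 and 0.0608).

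Xbp1, the transcription factor downstream of Ire1, did not follow its sensor. It was at 281 FPKM in both Gal4 control libraries, at 328 and 325 in the UAS control, and at 183 and 179 in APP flies. The fall held under all 3 scalings against the UAS control (-0.85 as deposited, SE 0.054, adjusted p = 8.44e-06; -1.02 relative) and was lost after quantile normalization against the Gal4 control (adjusted p = 0.511). The transcription factor crc was at 43.3 and 43.2 FPKM in the Gal4 control, 64.5 and 55.8 in the UAS control, and 56.9 and 58.7 in APP flies. It was called higher against the Gal4 control on FPKM as deposited (0.41, adjusted p = 0.00167) and after quantile normalization (0.39, adjusted p = 0.00493). It lay -0.02 from the median gene and at -0.15 after median centring, where it was not called (adjusted p = 0.0846), so the sign of its difference depended on the scaling. Against the UAS control its libraries overlapped, and it was called lower only after median centring (adjusted p = 0.00598) or without replicate 2 of that control (adjusted p = 0.0114). Der-1, part of the channel that returns misfolded proteins to the cytosol, was at 42.3 and 43.2 FPKM in the Gal4 control, 43.1 and 51.5 in the UAS control, and 31.5 and 32.2 in APP flies. sip3, the fly homologue of the ubiquitin ligase Hrd1, was at 21.9 FPKM in both Gal4 control libraries, at 26.9 and 27.6 in the UAS control, and at 19.0 and 19.1 in APP flies. Both fell under all 3 scalings, Der-1 by -0.41 and -0.55 and sip3 by -0.19 and -0.49 on FPKM as deposited, or -0.84 and -0.72 and -0.62 and -0.66 relative, although the call of sip3 against the Gal4 control was lost with any 1 of the 4 libraries left out (adjusted p = 0.0908 to 0.1).

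**Figure D2:**
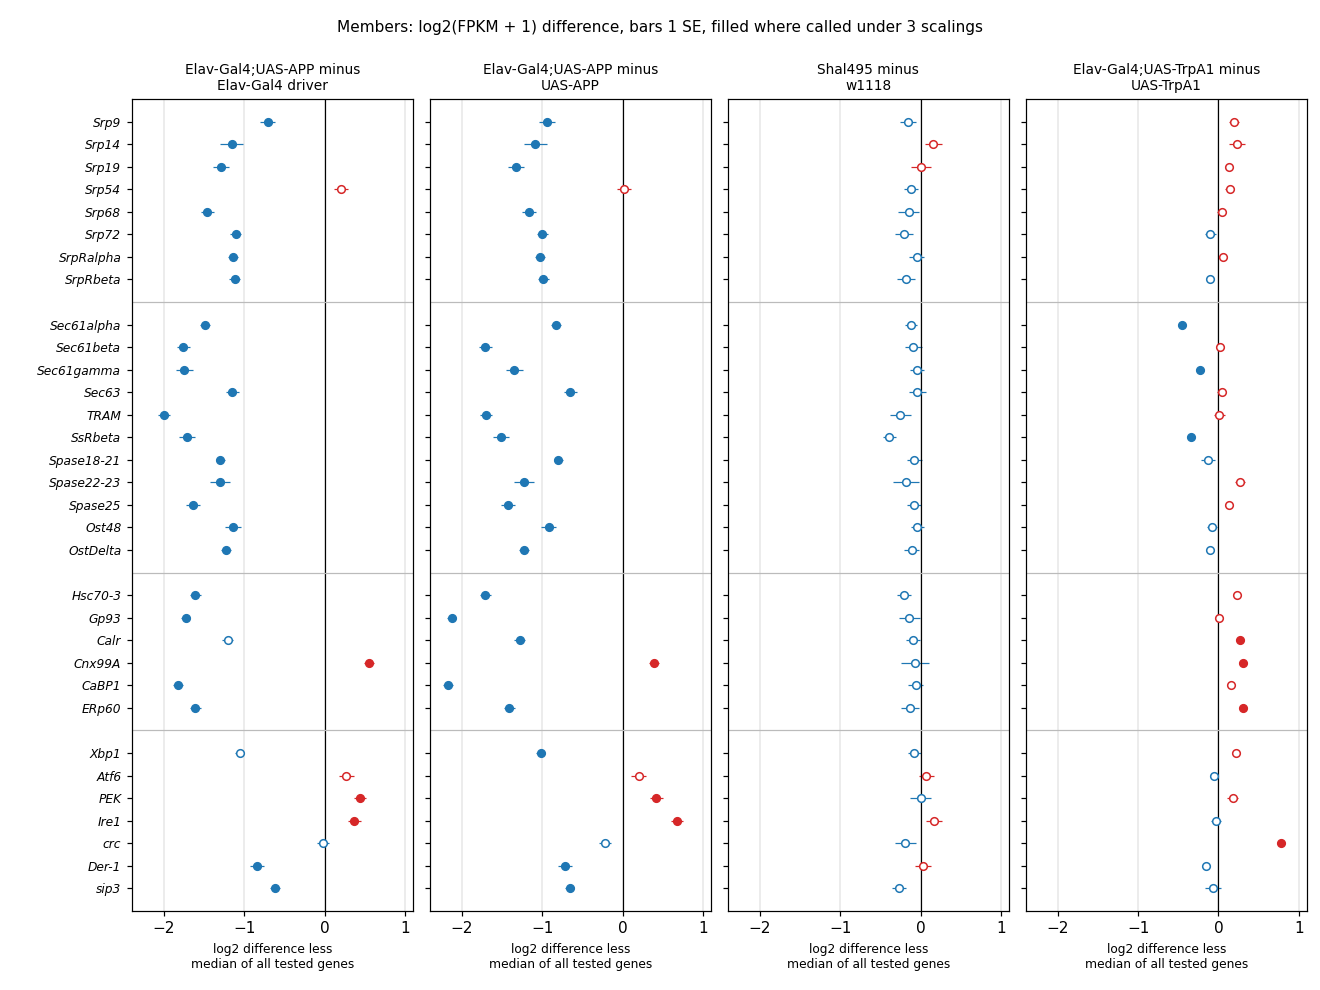
Log2(FPKM + 1) difference of each member less the median of all tested genes, in 4 comparisons; bars are 1 SE of the difference before the median was taken off, red is above and blue below the median gene, and filled points were called under all 3 scalings. Filled blue points cover the translocon in both APP panels, the Shal495 panel has no filled point, and the TrpA1 panel has 4 filled red and 3 filled blue points.

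The authors' deposited tables for APP also list processes of the ER route. They were made from the same libraries, and the members were chosen with earlier results of these data known. They are therefore not independent of the calls above. The authors' deposited table of KEGG pathways gives Protein export with 12 genes and p = 0.00055, of which 11 are members here and the other is Srp54k. The authors' deposited table also gives Protein processing in endoplasmic reticulum, with a deposited p of 0.031 and 32 genes. Of these, 12 are members. In the authors' deposited table of GO terms, SRP-dependent cotranslational targeting has 7 of 10 genes, a fold enrichment of 6.52, p = 0.000216 and a Benjamini value of 0.0538, with 6 members among the 7. That value is above 0.05. Other listed GO terms with members have higher Benjamini values, among them 0.115 for the signal recognition particle and 0.26 for the ER membrane. These tables do not state which control or direction they refer to.

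The controls of the APP table differed from each other as well. In the Gal4 control against the UAS control, 3 translocon genes rose under all 3 scalings (Sec61alpha, Sec63 and Spase18-21) and 2 folding genes fell (Gp93 and CaBP1), where 15.8% of all tested genes rose and 21.9% fell. On FPKM as deposited 3 members were higher and 14 lower, against 16.2% and 50.2% of all genes, and after median centring 8 were higher and 2 lower, against 29.7% and 24%. Quantile normalization gave 4 and 10, against 24.7% and 27.7%, so the balance depended on the scaling. The groups did not overlap for 21 members, of which 18 lay below and 3 above, beside 62.8% and 21.3% of all genes. Sec61alpha differed by 0.40 (SE 0.062, adjusted p = 0.00122), at 1.32 times the UAS control, and by 0.67 relative. Gp93 differed by -0.65 (SE 0.054, adjusted p = 7.57e-05), and by -0.38 relative. By step the relative differences ran from -0.21 (Srp9) to 0.30 (Srp68) in targeting, from 0.02 (OstDelta) to 0.67 in the translocon, from -0.38 to 0.21 (ERp60) in folding and from -0.19 (crc) to 0.33 (Ire1) among the stress genes. The calls of Sec63 and Spase18-21 did not hold with every library left out, with largest adjusted p of 0.149 and 0.0807. The number of members called changed with the library left out, and so did the number of all tested genes called. Digestive enzyme sums were higher in the Gal4 control, and neuronal sums lower, as given above; their part in these differences was not tested.

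**Figure D3:**
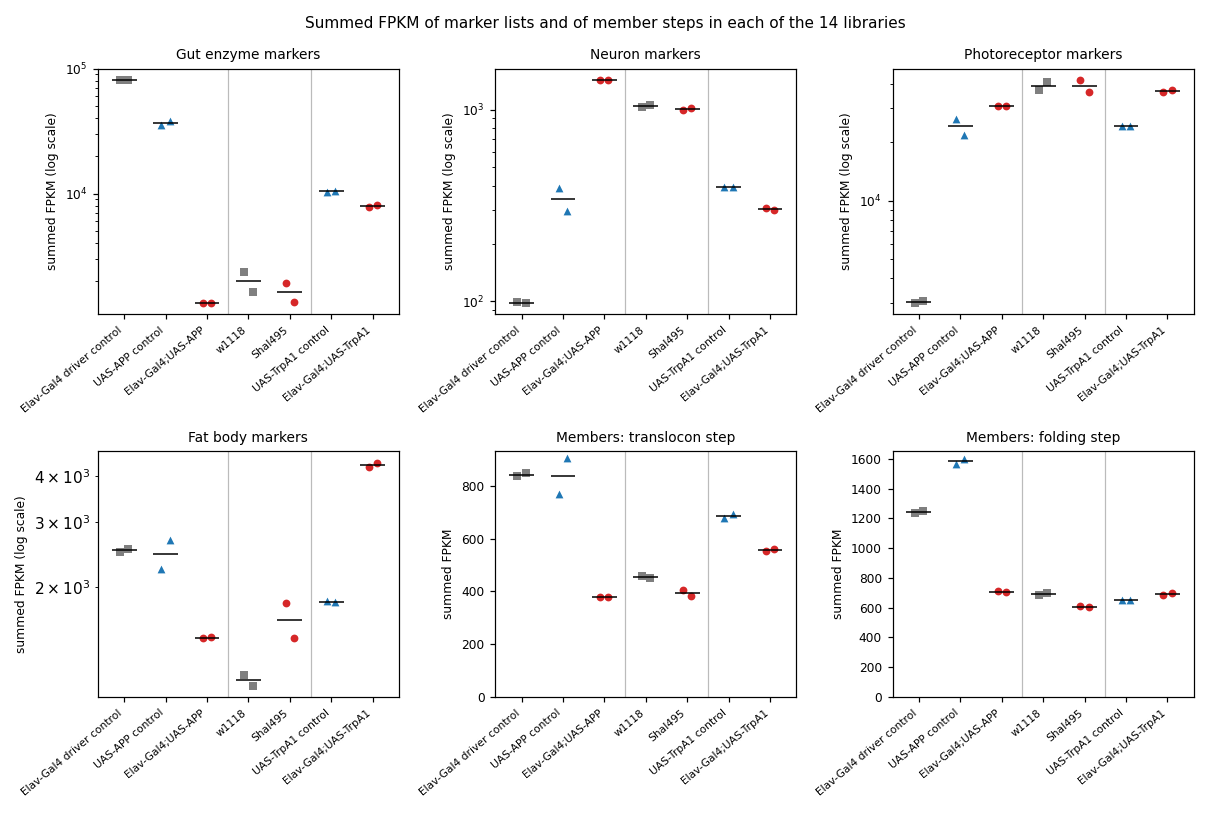
Summed FPKM of 4 marker lists (log scale) and of the translocon and folding members (linear scale from 0) in each of the 14 libraries; points are libraries and lines are group means. The Gal4 control has the highest digestive enzyme sum and the lowest neuronal sum, and APP flies have the lowest translocon sum of their table.

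Ratios of FPKM between members within a library are not changed by scaling the library with a single factor, though quantile normalization, which changes values by rank, does change them. These pairs were chosen after their values had been seen, so they are given as a description with no test. Cnx99A stood to Calr at 0.192 and 0.199 in the Gal4 control, 0.230 and 0.190 in the UAS control, and 0.668 and 0.665 in APP flies. The w1118 libraries had ratios of 0.472 and 0.605, and the Shal495 libraries 0.574 and 0.511. The ratio was 0.318 and 0.294 in TrpA1 flies, and 0.287 and 0.310 in the UAS-TrpA1 control. Both APP-table controls thus lay below the libraries of all 5 other groups. PEK stood to Hsc70-3 at 0.0382 and 0.0387 in the Gal4 control, 0.0377 and 0.0369 in the UAS control, and 0.168 and 0.167 in APP flies. In the 2 other tables it ranged from 0.0983 in a UAS-TrpA1 library to 0.212 in a Shal495 library. Ire1 to Hsc70-3 gave the same split, with 0.0408 to 0.0566 in the APP-table controls, 0.221 and 0.226 in APP flies, and 0.126 to 0.248 in the other tables. Ire1 to Xbp1 did not. It was 0.0404 to 0.0528 in the APP-table controls and 0.141 and 0.146 in APP flies, with 0.105 to 0.136 in the Shal495 table, but at 0.0354 to 0.0457 the TrpA1-table libraries lay within or below the range of those controls. The 4 libraries of these controls also held the highest digestive enzyme sums of the series, 35361 or more against at most 10573 elsewhere; the part of this in the ratios was not tested.

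**Figure D4:**
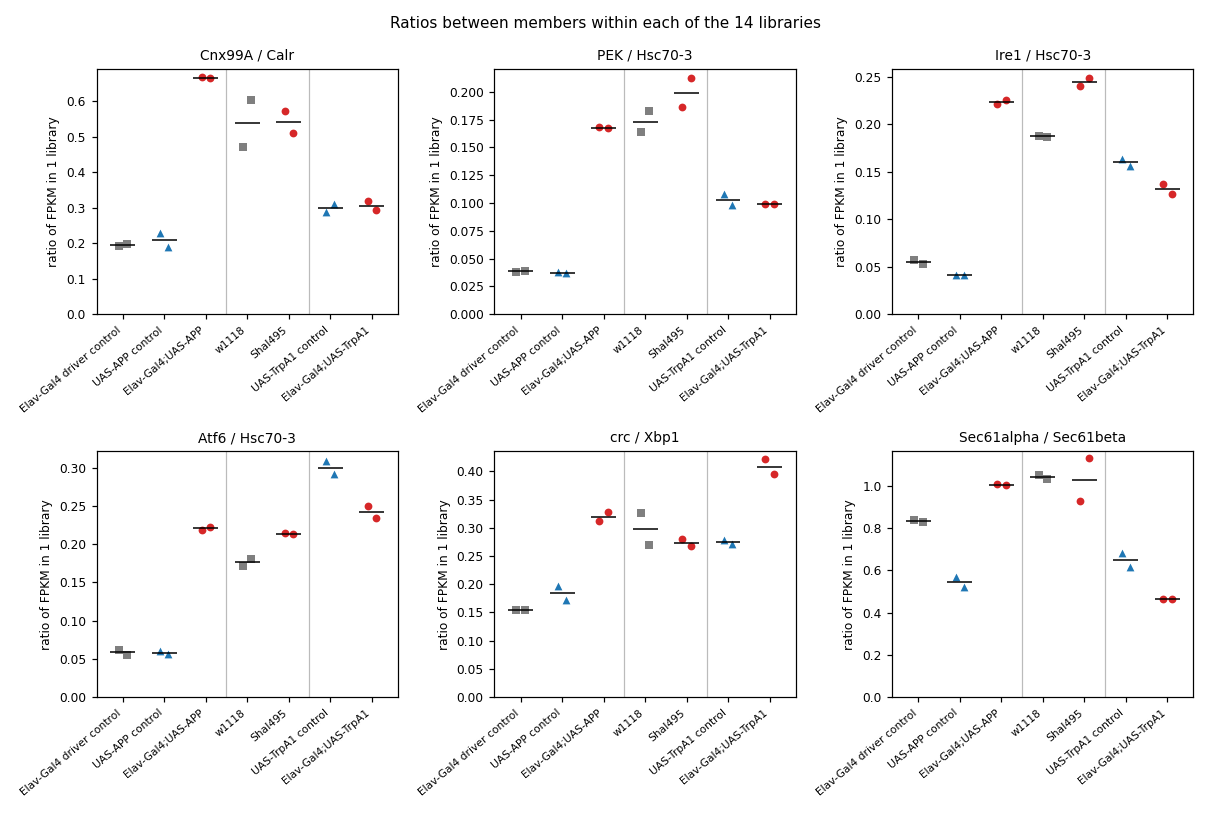
Ratio of FPKM between 2 members within each of the 14 libraries, for 6 pairs, each axis from 0; points are libraries and lines are group means. In the panels of Cnx99A, PEK, Ire1 and Atf6 the Gal4 and UAS controls lie below every other library, and crc to Xbp1 is highest in TrpA1 flies.

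In Shal495 flies no member passed the test against w1118. The count was 0 of 32 higher and 0 lower with limma, where 1.16% and 1.2% of the 9628 tested genes were called, and limma with voom weights on fragment numbers recovered from the FPKM values also called 0. Median centring also called 0, beside 1.5% and 1.25% of all genes, and so did quantile normalization, beside 1.49% and 1.1%. Under all 3 scalings 1.15% of genes were higher and 1.06% lower. At an unadjusted p under 0.05, 0 members were higher and 3 lower (SsRbeta, Hsc70-3 and sip3), where 7.34% and 12.2% of all tested genes were. Differences were below 0 for 29 of 32 members, beside 63.2% of all genes, and 26 of 32 were below the median gene. Their median was -0.16 (log2), beside -0.07 for all genes. Libraries of the groups did not overlap for 24 members, and 23 of these were lower in Shal495, where 34.5% of all tested genes were lower and 18.2% higher without overlap. Replicates of these groups differed more than sampling noise, with a chi-square per member of 14.9 in w1118 and 10.2 in Shal495, where noise alone gives 1. Shal itself was at 27.7 and 27.1 FPKM in w1118 and at 18.3 and 20.0 in Shal495 (-0.50, adjusted p = 0.0795). The eye pigment gene w was at 0.122 and 0.0465 FPKM in w1118 and at 21.1 and 23.3 in Shal495, and Yp2 differed as given above; the part of either difference between the strains was not tested.

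In the targeting step the differences of Shal495 ran from -0.27 (SE 0.112) for Srp72, with 19.3 and 17.1 FPKM in w1118 and 15.6 and 14.2 in Shal495, to 0.09 (SE 0.110) for Srp14, with 11.5 and 11.7 against 13.2 and 11.7. In the translocon step SsRbeta, a subunit of the translocon-associated protein complex, had the smallest adjusted p of all members. It was at 68.5 and 66.9 FPKM in w1118 and at 50.4 and 47.4 in Shal495, with no overlap, a difference of -0.46 (SE 0.081) and an adjusted p of 0.0735. Sec61alpha was at 86.9 and 84.8 FPKM in w1118 and 73.8 and 76.6 in Shal495 (-0.19, SE 0.078, adjusted p = 0.281). For Spase25 the values were 34.1 and 31.6 FPKM in w1118 and 30.1 and 28.8 in Shal495. Ost48, Sec63 and Sec61gamma differed least in this step, each at -0.11. Ost48 was at 47.5 and 48.4 FPKM in w1118 and 43.1 and 45.9 in Shal495, and Sec63 at 10.7 and 10.0 and at 9.28 and 9.82.

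Among the chaperones Hsc70-3 was at 116 and 114 FPKM in w1118 and 90.2 and 98.5 in Shal495, a difference of -0.28 (SE 0.086, adjusted p = 0.186). Gp93 was at 65.4 and 58.6 FPKM in w1118 and 48.2 and 58.8 in Shal495, and its libraries overlapped. Calr was at 218 and 228 FPKM in w1118 and 205 and 194 in Shal495. CaBP1 differed least of the step, by -0.13, with 24.2 and 25.7 FPKM in w1118 and 23.7 and 21.8 in Shal495. None of these gaps passed the test.

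Of the stress genes, Ire1 was at 21.7 and 21.2 FPKM in w1118 and 21.7 and 24.5 in Shal495, the highest difference of the step at 0.10 (SE 0.100). PEK was at 18.9 and 20.7 FPKM in w1118 and 16.8 and 20.9 in Shal495, and Atf6 at 19.8 and 20.5 and at 19.3 and 21.0. All 3 sensors overlapped between the groups. Xbp1 was at 207 and 199.6 FPKM in w1118 and 185 and 180.4 in Shal495 (-0.15, SE 0.082, adjusted p = 0.387). The values of crc were 67.4 and 53.7 FPKM in w1118 and 51.7 and 48.2 in Shal495 (-0.26, SE 0.132, adjusted p = 0.365). sip3 had the lowest difference of the step, -0.34 (SE 0.090, adjusted p = 0.14), with 24.5 and 25.6 FPKM in w1118 and 20.1 and 19.1 in Shal495. Der-1 overlapped, at 36.2 and 34.3 FPKM in w1118 and 36.7 and 31.8 in Shal495. The authors' deposited GO table for Shal495 gives endoplasmic reticulum membrane with 24 genes, 15 up and 9 down, p = 0.00907 and a false discovery rate of 0.25, and 0 of those genes are members here.

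In TrpA1 flies crc had the largest rise of the members. Against the UAS-TrpA1 control 4 members rose under all 3 scalings (crc, Calr, Cnx99A and ERp60) and 3 translocon members fell (Sec61alpha, Sec61gamma and SsRbeta), where 16.3% of the 8980 tested genes rose and 21.8% fell. As 12.5% and 9.38% of the 32, these counts were below the background in both directions. No targeting gene was called under all 3. On FPKM as deposited 4 were higher and 13 lower, against 16.6% and 43.9% of all genes. After median centring 13 were higher and 3 lower, against 28.8% and 22.7%, and after quantile normalization 8 and 4, against 25.9% and 24.2%, so only the calls shared by all 3 are described as changes. The groups did not overlap for 27 members, of which 20 lay below and 7 above, beside 58.1% and 22.8% of all genes. The median member lay 0.04 (log2) from the median gene. TrpA1 itself was at 2.76 and 2.62 FPKM in TrpA1 flies and 1.48 in both control libraries (0.58, SE 0.089, adjusted p = 0.0019, and 0.74 relative). Summed FPKM of 14 fat body genes was 4250 to 4363 in TrpA1 flies and 1819 to 1828 in the control, and of 12 muscle genes 1198 to 1201 and 2566 to 2575. The 16 neuronal genes summed to 301 to 308 in TrpA1 flies and 392 to 393 in the control. For 8 glial genes the sums were 1151 to 1155 and 1633 to 1649, and for 14 photoreceptor genes 36555 to 37292 and 24224 to 24228. Digestive enzymes, 28 in this table, summed to 7787 to 8071 and 10375 to 10573, and Yp2 separated the groups as given above; the part of these in the result was not tested.

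The transcription factor crc (FBgn0000370, chr2L:21310866-21319527) acts downstream of PEK and turns on genes of amino acid supply and stress defence. It was at 103 FPKM in both TrpA1 libraries and at 67.5 and 66.1 in the control. That is 1.55 times the control, a log2 difference of 0.62 (SE 0.036, adjusted p = 2.24e-05), or 0.78 relative, and it passed with any 1 library left out (largest adjusted p = 0.00196). PEK, its upstream kinase, was at 7.02 and 7.24 FPKM in TrpA1 flies and 7.28 and 6.82 in the control, with overlapping libraries; it was not called on FPKM as deposited and was called higher after the other scalings (adjusted p = 0.0452 and 0.0431). Xbp1 was at 245 and 261 FPKM in TrpA1 flies and 242 and 243 in the control, and was called higher only after median centring and quantile normalization, not on FPKM as deposited (adjusted p = 0.239). The ratio of crc to Xbp1 within a library was 0.422 and 0.395 in TrpA1 flies, and 0.279 and 0.272 in the control. The other sensors were lower on FPKM as deposited: Atf6 was at 17.7 and 17.2 FPKM against 20.9 and 20.2, and Ire1 at 9.69 and 9.24 against 11.1 and 10.8. Relative to the median gene they lay at -0.06 and -0.03, and neither was called after median centring. Der-1 had the lowest value of the step, -0.31 (SE 0.044, adjusted p = 0.00124), or -0.15 relative, with 38.3 and 36.5 FPKM in TrpA1 flies and 46.8 and 46.4 in the control. Its call was absent after median centring. sip3 was at 12.4 and 13.8 FPKM in TrpA1 flies and 17.1 and 14.1 in the control and was not called under any of the 3.

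Of the translocon, Sec61alpha, Sec61gamma and SsRbeta fell in TrpA1 flies. Sec61alpha was at 67.1 and 67.2 FPKM in TrpA1 flies and 104 and 103 in the control, at 0.649 times the control, with a difference of -0.62 (SE 0.035, adjusted p = 2.23e-05), or -0.45 relative. Sec61gamma, at 90.1 and 90.8 FPKM against 123 and 114, differed by -0.39 (SE 0.045, adjusted p = 0.000518), or -0.23 relative. SsRbeta, at 60.0 and 57.6 FPKM against 80.3 and 87.1, differed by -0.50 (SE 0.051, adjusted p = 0.000284), or -0.34 relative. None of these libraries overlapped between groups, and each call held with any 1 library left out. Their partner Sec61beta was at 144 and 145 FPKM in TrpA1 flies and 153 and 166 in the control, with no overlap. It was called lower on FPKM as deposited but not after median centring (0.05, adjusted p = 0.392), and lay 0.02 from the median gene. Sec61alpha to Sec61beta within a library was 0.464 and 0.463 in TrpA1 flies against 0.683 and 0.617. Spase25 was at 39.8 and 41.3 FPKM against 41.4 and 41.6. Spase22-23 had the highest difference of the step, 0.11 (SE 0.063), or 0.27 relative, with 17.9 and 17.7 FPKM against 17.3 and 15.6, and was called only after median centring and quantile normalization. In the targeting step the relative differences ran from -0.11 for SrpRbeta, at 18.4 FPKM in both TrpA1 libraries and 22.3 and 22.5 in the control, to 0.23 for Srp14, whose libraries overlapped at 30.7 and 37.9 against 33.8 and 31.5.

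Of the 6 folding genes 3 rose in TrpA1 flies. ERp60 was at 180.4 and 187 FPKM in TrpA1 flies and 167 in both control libraries (0.14, SE 0.035, adjusted p = 0.014, and 0.30 relative). Calr was at 269 and 276 FPKM against 255 and 251 (0.11, SE 0.032, adjusted p = 0.0292, and 0.27 relative). Cnx99A was at 85.4 and 81.0 against 73.3 and 77.8 (0.14, SE 0.047, adjusted p = 0.0435, and 0.30 relative). Their means were 1.1 times the control or, for Calr, 1.08 times. Each of these 3 calls was lost in 3 of the 4 fits that left out 1 library, with largest adjusted p of 0.0735 for ERp60, 0.137 for Calr and 0.215 for Cnx99A. Without replicate 2 of TrpA1 flies 2 members were higher, and without either library of the control 1 was. Hsc70-3 was at 70.7 and 73.2 FPKM against 67.6 and 69.4, and was called higher only after median centring and quantile normalization, not on FPKM as deposited (adjusted p = 0.169). Gp93 had the lowest value of the step, -0.15 as deposited and 0.01 from the median gene, with 48.3 and 50.8 FPKM against 55.9 and 54.6.

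**Figure D5:**
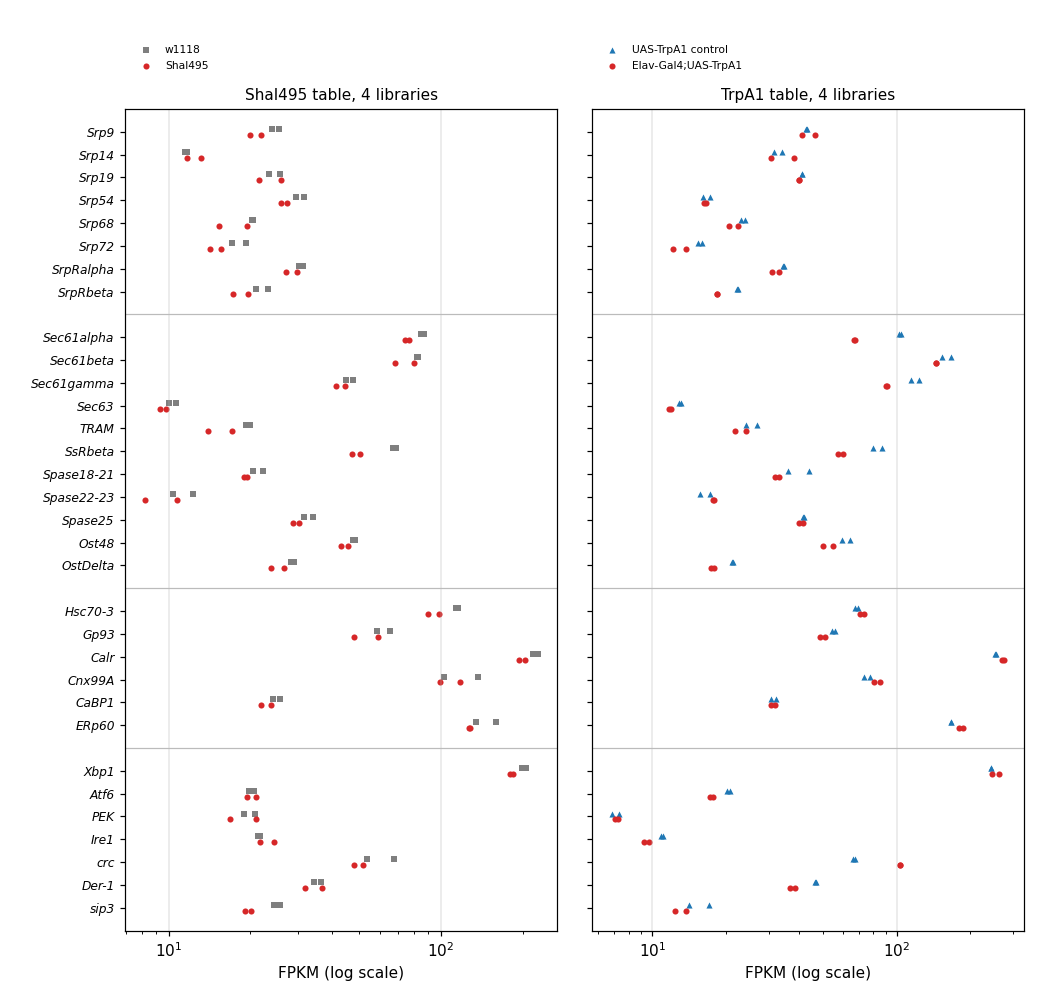
FPKM (log scale) of the 32 members in the 4 libraries of the Shal495 table (left) and of the TrpA1 table (right), by step as listed; circles are Shal495 or TrpA1 flies, squares w1118 and triangles the UAS-TrpA1 control. Most circles lie slightly left of the squares in the left panel, and crc stands out to the right and Sec61alpha to the left in the right panel.

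Beyond the members, 102 further genes of the ER route were listed by class (insertion, glycosylation, folding, export vesicles, degradation and stress response), of which 79 could be tested. In APP flies 37 of them fell and 6 rose under all 3 scalings against the Gal4 control, and 47 fell and 5 rose against the UAS control. These falls are 46.8% and 59.5% of the 79, beside 25.7% and 28.9% of all tested genes, and the rises 7.59% and 6.33%, beside 35.4% and 35.2%. Their median lay -0.57 and -0.50 from the median gene. The lowest were in the export vesicle class: loj, a p24 cargo adaptor of the early secretory pathway, had a mean of 9.97 FPKM in APP flies, 31.1 in the Gal4 control and 35.6 in the UAS control. P58IPK, an ER co-chaperone, was at 28.9 FPKM in APP flies against 63.6 and 78.1. A few went the other way. OS9, a lectin of ER-associated degradation, was at 209 FPKM in APP flies against 34.2 and 42.9, and GCS2alpha, the catalytic subunit of the glucosidase that trims sugars for calnexin and calreticulin, was at 138 against 68.2 and 86.1. Between these controls 7 rose and 5 fell under all 3 scalings in the Gal4 control relative to the UAS control. These are 8.86% and 6.33% of the 79, below the 15.8% and 21.9% of all tested genes.

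In Shal495 flies 1 of the 79 further genes was called, against 1.16% of all tested genes. This was Sec31, a coat protein of vesicles that leave the ER, at means of 53.1 FPKM in Shal495 and 19.3 in w1118 (log2 difference 1.41, SE 0.106, adjusted p = 0.0117). In TrpA1 flies 16 rose and 12 fell under all 3 scalings, 20.3% and 15.2% of the 79 beside 16.3% and 21.8% of all tested genes, and their median lay 0.10 from the median gene. On FPKM as deposited 16 were higher and 34 lower, beside 16.6% and 43.9% of all genes. After median centring 36 were higher and 12 lower, beside 28.8% and 22.7%. Edem1, a lectin that sends misfolded glycoproteins to degradation, was at a mean of 12.4 FPKM in TrpA1 flies and 7.34 in the control, and OS9 at 64.6 and 115.6.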

How the data were processed

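RNA from 14 libraries was read as poly(A)-selected, paired-end Illumina data, per the labels' protocols. The authors deposited FPKM per gene in 3 tables, 1 for each mutant. The build is BDGP6, per the submitters' processing notes, which also list HISAT2 2.1.0, TopHat2 and Bowtie2 2.2.3 with no role for each; how FPKM was computed is not stated there. The authors also deposited enrichment tables with gene counts, a p-value per term and, for some, a ratio as fold enrichment; these were copied and not recomputed. Their contrast is not stated.

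The FPKM values were taken as log2(FPKM + 1), and a gene entered the test where FPKM reached 1 in 2 or more libraries of its table. The test was that of limma 3.58.1 (empirical Bayes moderated, R 4.3.3), 1 fit per table over all its groups, with Benjamini-Hochberg adjustment over all genes tested and a threshold of 0.05. Each group had n = 2 libraries. The SE of a difference comes from the moderated spread of that fit, pooled over all groups of the table. In the APP table it therefore also holds the spread of the group that is not compared. Tables were compared only within themselves. Scripts used Python 3.11.15, pandas 2.3.3, numpy 2.4.6 and matplotlib 3.10.9. The fit was also run on simulated data with 1 fixed spread between replicates (dispersion 0.01) and no shift of the median gene. The real groups differ in both, so that run does not test the calls given here. The members and all gene lists were chosen with earlier results of these data known. The genes given in every library were the highest and lowest log2 difference of each step in each comparison and a short list of core members (Sec61alpha, Spase25, Hsc70-3, Gp93, Calr, Xbp1, Atf6, PEK, Ire1, crc, Der-1 and sip3). Of other pathway genes, the highest and lowest called of a class could be named.

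FPKM times annotated length gave whole fragment numbers, within 0.02, in every library for 98.6% of genes, so depth was recovered; 3 fragments correspond to 0.151 to 0.175 FPKM for a gene of 1 kb. Alternatives were median centring, quantile normalization, voom on recovered fragments, other pseudocounts and filters, a replicate block and leaving out each library. Spase12 was not analysed here, and no sequence was read.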

Additional observations from a re-analysis of the deposited data

How the results depend on the processing

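Over single members and all 5 comparisons, 1708 of 1856 alternative values kept their call or the lack of one. The call was lost in 91 and gained in 43, and 14 values called on at least 1 of the scales set against each other changed sign; the cause was not tested. Another 65 values changed sign with no call on either scale, and these are among the 1708. Counting both kinds, median centring changed the sign of 16 of 32 members between the APP-table controls and of 10 in TrpA1 flies, and of 1 in each APP comparison and 3 in Shal495. With median centring, 3555 genes were higher and 4516 lower in APP flies against the Gal4 control, with 3 members higher, and crc turned to -0.15. Between the controls, median centring gave 2931 genes higher and 2370 lower, with 8 members higher and 2 lower, and quantile normalization 2438 and 2732. Among members called there on at least 1 of the scales, the log2 differences of Srp19 (0.01), OstDelta (0.05), ERp60 (0.25), Xbp1 (0.09), PEK (0.02, and 0.0 by quantile normalization) and sip3 (0.0) changed sign, as did the member median (0.12), all with median centring. Another 10 members, called on neither scale, changed sign with it too: Srp14, Srp72, SrpRalpha, SrpRbeta, Sec61beta, SsRbeta, Spase22-23, Spase25, Ost48 and Der-1. In TrpA1 flies median centring gave 2586 genes higher and 2042 lower and quantile normalization 2325 and 2169. Members were 13 higher and 3 lower with the former, 8 and 4 with the latter, and 2 higher with voom. Among members called on at least 1 of the scales, median centring turned Srp19 (0.15), Srp54 (0.16), Sec61beta (0.05), Spase25 (0.15), Gp93 (0.03) and CaBP1 (0.18). It also turned the member median (0.06, and 0.04 by quantile normalization) and 4 members called on neither scale (Srp68, SrpRalpha, Sec63 and TRAM).

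In Shal495, where 112 genes were higher and 116 lower, no filter gave 12 and 12. Leaving out 1 library gave 10 (without Shal495 replicate 2) to 39 higher and 11 (without w1118 replicate 1 or Shal495 replicate 2) to 99 lower (both highest values without w1118 replicate 2), with 0 members called each time. Between the controls of the APP table, leaving out 1 library gave 1 (without Gal4 control replicate 2) to 5 members higher (without UAS control replicate 2) and 9 to 24 lower. In TrpA1 flies it gave 1 to 4 members higher and 8 (without UAS-TrpA1 control replicate 1) to 12 lower. In APP flies it gave 24 to 25 members lower against the Gal4 control and 26 to 27 against the UAS control.

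Same-numbered replicates did not deviate together (correlations from -0.033 to 0.018 between groups), so numbers were not taken as pairs. With the replicate block, members higher and lower were 6 and 26 for APP flies against the Gal4 control, 4 and 26 against the UAS control, 3 and 14 between these controls, 0 and 0 in Shal495, and 3 and 14 in TrpA1 flies. The block left 50 genes higher and 46 lower in Shal495. For the other comparisons the share of all tested genes called with the block is not given, so those member counts have no background here. With the SRP subunit Srp54k in place of Srp54, an alternative chosen after seeing the data, members were 5 higher and 27 lower, 4 and 27, 3 and 13, 0 and 0, and 4 and 13 in the same order. The fit is unchanged by that swap, so the shares of all genes are those given above for FPKM as deposited. Leaving out 1 library leaves 1 in its group, which is then assumed to vary like the other groups.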
